A study of Homo sapiens with 2 samples.

Results

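Mitochondrial ribosomal protein genes are the nuclear genes that encode the proteins of the ribosome inside mitochondria. They were taken by symbol, as MRPL or MRPS followed by a number and, for MRPS, an optional letter from A to C. The hg19 annotation holds 78 such protein-coding genes, and 15 of them were named in the gene assignments of the deposited interval list. Those 15 genes accounted for 17 of the 4169 intervals in the list. The other 63 members are counted as genes without an interval.

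The data come from chromatin immunoprecipitation with sequencing (ChIP-seq) in U-87 MG, an established human malignant glioma cell line, grown without treatment. The cells overexpressed sGCβ1, the haem-binding subunit of the nitric oxide receptor soluble guanylate cyclase, encoded by GUCY1B3. The study has 1 ChIP library, precipitated with an antibody to sGCβ1, and 1 input library, made without antibody from the same overexpressing cells. The labels do not say whether the cells are a single clone. The question was where the antibody recovers DNA. All values below describe the ChIP library's intervals, as called by the authors on hg19; data of the input library were not used. With 1 library there is no replicate error and no test of a difference. Intervals of 95% around shares (exact Clopper-Pearson) and medians (order statistics) cover counting error only, and the read depth is unknown.

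Mitochondrial ribosomes translate the few proteins that mitochondrial DNA encodes, all of them subunits of the respiratory chain or ATP synthase. Their RNAs come from mitochondrial DNA, but all their proteins are made in the cytosol from nuclear genes and imported. Some of these proteins descend from bacterial ribosomal proteins and keep their numbers, and others were added in the mitochondrial lineage. Their genes are expressed in nearly every tissue, mostly from promoters with CpG islands, stretches rich in unmethylated CG dinucleotides.

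Where a member carried an interval, its summit usually lay at the gene's own start. In 13 of the 78 genes (16.7%, 95% interval 9.18 to 26.8) a summit lay within 1000 bp of the start by the authors' distance, in 12 intervals, as MRPL46 and MRPS11 share one. The same was true of 6.83% of all 20136 protein-coding genes, and of 9.47% of those whose start is CpG-rich. CpG-rich here means at least 55% G and C and an observed to expected CpG ratio of at least 0.65 over 500 bp. Counting an interval at any assigned distance, 15 members (19.2%, 11.2 to 29.7) had one, against 15.3% of all protein-coding genes and 19.0% of those with a CpG-rich start. The share at any distance was thus near the background, and the share at starts was above the all-gene value, with a 95% interval that reaches down to 9.18%, just below the CpG-rich value.

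Most of these intervals were no taller than the typical one at a gene start. Height is the authors' peak value, the greatest fragment density reached within an interval. Over the 12 start intervals its median was 14 (95% interval 13 to 25, range 10 to 37). The median was 16 (15 to 16) over all 1202 intervals at starts of protein-coding genes and 14 over the whole list. Of the 12, 4 reached the median of all start intervals, which 52.2% of all start intervals reached. None of the 12 reached 40, against 15.2% of all start intervals, and a count of 0 of 12 allows a share of up to 26.5% (exact upper bound).

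**Figure D1:**
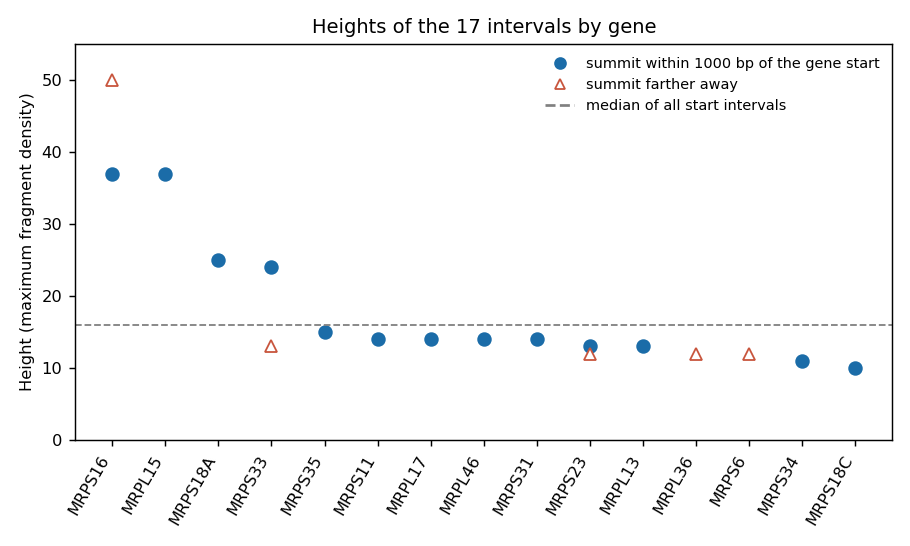
Height (maximum fragment density, vertical axis from 0) of the 17 intervals, by gene; filled circles have a summit within 1000 bp of the gene start, open triangles lie farther away, and the dashed line is the median of all start intervals, 16. MRPL46 and MRPS11 show the same interval. The start intervals of MRPS16, MRPL15, MRPS18A and MRPS33 lie above the line, at 24 to 37, and the other start intervals at 10 to 15.

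The 2 tallest start intervals stood at a small subunit gene and a large subunit gene, both with a height of 37 and a shared rank of 430 of 4169. MRPS16, a small subunit protein of bacterial descent, lies on chromosome 10 from 75008601 to 75012451 on the minus strand. Its interval ran from 75011661 to 75013224 with the summit 3 bp inside the gene, in an untranslated part of an exon, and a MACS score of 377 (minus 10 times log10 of the authors' p-value). MRPL15, a large subunit protein of bacterial descent, lies on chromosome 8 from 55047801 to 55061074 on the plus strand. The interval there ran from 55047156 to 55048583 with the summit 37 bp upstream of the start, and its score of 486 was the highest of the 17. No other gene was assigned to the MRPL15 interval. The MRPS16 interval had 5 others, the nearest LOC100507212, with the summit 101 bp upstream of its start.

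MRPS16 also appeared in the assignment of a second, taller interval, which lies at another gene. It ran from 75006120 to 75007831 on chromosome 10, with a height of 50, the greatest of the 17 intervals. Its summit was 5379 bp from the MRPS16 start, beyond the gene's other end, but 47 bp upstream of DNAJC9, a J-domain co-chaperone of histones, and 48 bp upstream of C10orf103. The height of 50 is therefore not a value at the MRPS16 promoter. The 2 intervals overlapped 1 CpG island each.

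MRPS18A and MRPS33 followed. MRPS18A is one of the paralogues descended from a single bacterial small subunit protein, with MRPS18B and MRPS18C, but its product sits in the large subunit. It lies on chromosome 6 from 43638939 to 43655528 (minus strand), and its interval, from 43654616 to 43656287, had a height of 25, a score of 151 and a summit 67 bp upstream. MRPS18C, a small subunit protein on chromosome 4, had an interval of height 10, the lowest of the 17, and MRPS18B on chromosome 6 had none. The 3 paralogues thus spanned 25, 10 and no interval.

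MRPS33, a mitochondria-specific small subunit protein on chromosome 7 (140702410 to 140715028, minus strand), had 2 intervals. The first, from 140713899 to 140715336, had a height of 24 and a summit 173 bp inside the gene, in an intron. The second, from 140711972 to 140713414, had a height of 13 with the summit 2301 bp inside, also in an intron. The taller interval overlapped a CpG island and the lower one did not, and G and C made up 54% and 33% of the 200 bp around their summits.

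Below these, 8 start intervals had heights of 10 to 15. MRPS35, a mitochondria-specific small subunit protein on chromosome 12, had a height of 15 with the summit 154 bp upstream (interval 27863003 to 27864235). MRPL17, a large subunit protein of bacterial descent on chromosome 11, had 14 with the summit 136 bp inside, in coding sequence (6703849 to 6705346). MRPS31, mitochondria-specific and of the small subunit, on chromosome 13, also had 14, at 72 bp upstream (41344637 to 41345955). These 3 were the only genes assigned to their intervals.

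MRPL46 and MRPS11 are divergent neighbours on chromosome 15, and 1 interval covered both starts. It ran from 89009931 to 89011364, with a height of 14 and a score of 182. The summit lay 135 bp upstream of MRPL46, a mitochondria-specific large subunit protein, and 84 bp inside MRPS11, a small subunit protein of bacterial descent. A large and a small subunit gene thus shared a single called region. No other member has a divergent partner within 1000 bp that is also a member, so no second such pair was possible.

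Further shared starts joined members to genes of other functions. MRPL13, a large subunit protein of bacterial descent on chromosome 8, had an interval of height 13 from 121457192 to 121458151. The summit was 143 bp inside MRPL13 and 162 bp upstream of MTBP, named for its binding to MDM2. MRPS34, a mitochondria-specific small subunit protein on chromosome 16, had one of height 11 from 1822682 to 1823694, with the summit 52 bp inside, in coding sequence, and 141 bp upstream of EME2, a partner of the nuclease MUS81. The MRPS18C interval, from 84376539 to 84377419, had its summit 270 bp upstream of MRPS18C and 177 bp inside HELQ, a DNA helicase gene, so it was nearer the HELQ start. In all, 4 of the 12 start intervals (33.3%, 9.92 to 65.1) had the start of a second protein-coding gene within 1000 bp of the summit, against 21.0% of all start intervals. With the starts of all annotated genes the order turned, at 50% against 52.2%. The 4 intervals shared by protein-coding starts had heights of 14, 13, 11 and 10, and the other start intervals ranged from 13 to 37. Among the latter, the MRPS16 interval was also assigned to LOC100507212, with the summit 101 bp upstream of that start.

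MRPS23, a mitochondria-specific small subunit protein on chromosome 17 (55912142 to 55927417, minus strand), had an interval at each end. That at the start, from 55927038 to 55928333, had a height of 13, with the summit 249 bp upstream. The other, from 55911438 to 55912589, had a height of 12, with the summit 15415 bp from the start and beyond the gene's end. Only the interval at the start overlapped a CpG island.

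For MRPS6 and MRPL36 no summit lay at the start. MRPS6, a small subunit protein of bacterial descent on chromosome 21, had an interval of height 12 in an intron, from 35446707 to 35447744, with the summit 1345 bp inside the gene and 1298 bp inside SLC5A3, a myo-inositol transporter gene. MRPL36, a large subunit protein of bacterial descent on chromosome 5, had one of height 12 from 1789358 to 1791136, 9540 bp from its start and beyond its end. The greatest distance counted as a start interval was the 270 bp of MRPS18C and the smallest left out was the 1345 bp of MRPS6, so no member lay close to the limit of 1000 bp.

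The start summits fell on both sides of the start. For 7 genes the summit was upstream and for 6 inside, with a median distance of 135 bp and a range of 3 to 270 bp by the authors' distance. Measured to the nearest annotated protein-coding transcript start, 10 were upstream and 3 inside, since MRPS33, MRPS11 and MRPL13 changed side, and the median was 114 bp. Over all start intervals the median distance to the nearest assigned start was 175 bp, with a range of 0 to 995 bp. That is a different measure, since the members' distances are to the member's own start even where another start is nearer.

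**Figure D2:**
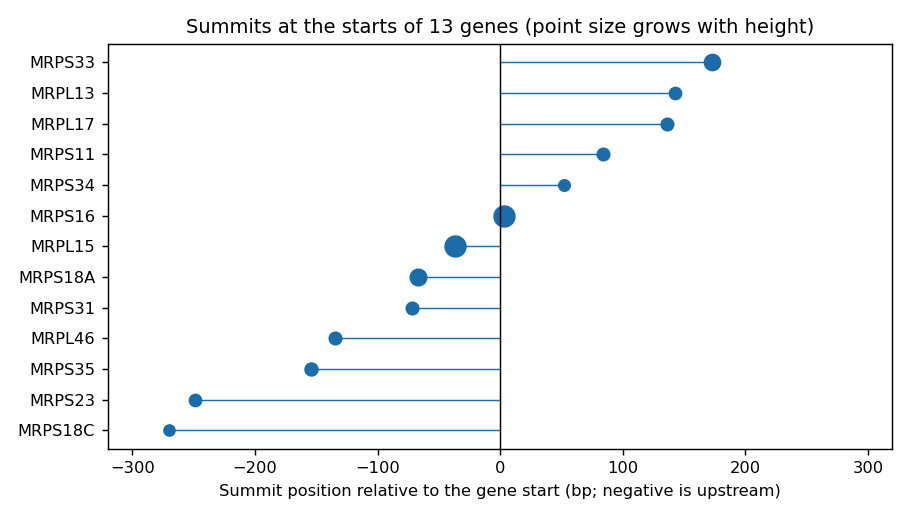
Position of the summit relative to the gene start for the 13 genes with a start interval, in bp by the authors' distance, negative upstream; point size grows with height. All points lie between 270 bp upstream and 173 bp inside, and the 2 tallest, MRPS16 and MRPL15, lie closest to the start, at 3 bp inside and 37 bp upstream.

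By the place of the product in the ribosome, 8 of 26 small subunit genes had a start interval (30.8%, 14.3 to 51.8) and 5 of 51 large subunit genes (9.80%, 3.26 to 21.4). MRPS18A and MRPS30 are counted with the large subunit, and MRPS36, whose product belongs to a dehydrogenase complex, with neither. The 2 ranges overlap and the difference was not tested. MRPL58, a large subunit gene, has a start interval under its older symbol ICT1 but is counted here as without. Of all protein-coding genes 6.83% had one, and of those with a CpG-rich start 9.47%, which is near the large subunit value. By symbol alone, 9 of 29 MRPS genes (31.0%) and 4 of 49 MRPL genes (8.16%) had one. Both groups had a median of 14 and a tallest start interval of 37.

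By descent as classed here, of 46 genes for proteins of bacterial descent 7 had a start interval (15.2%, 6.34 to 28.9), and of 32 mitochondria-specific ones 6 (18.8%, 7.21 to 36.4). The 32 include MRPS36, which is counted with neither subunit. Of all protein-coding genes 6.83% had one. Within the small subunit, 5 of 9 mitochondria-specific genes had one, namely MRPS23, MRPS31, MRPS33, MRPS34 and MRPS35. In the large subunit 1 of 22 did by the deposited symbol, MRPL46. These are small counts, chosen for mention after their values were seen, and their ranges, 21.2 to 86.3% and 0.115 to 22.8%, overlap. MRPL58 is also among the 22 and the 32 and is counted as without, though it has a start interval under its older symbol ICT1.

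Among the members without an interval were MRPL12, the stalk protein of the large subunit, MRPS12, at the decoding site, and MRPL3, MRPS2 and MRPS7. Measured from the start, the nearest summit to these 63 genes was at a median of 209738 bp, and 1 of the 63 had one within 20000 bp. That gene was MRPL58, a peptidyl-tRNA hydrolase of the large subunit, which the list holds under its older symbol ICT1. Its interval, on chromosome 17 from 73008406 to 73009180, had a height of 15 with the summit 172 bp upstream. Counted by this older name, 14 of 78 genes (17.9%) had a start interval.

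Base composition was compared between starts with and without an interval. MRPL58, whose start interval is listed under ICT1, was counted as without. Over 500 bp around the start, G and C content had a median of 60.8% (range 53.4 to 74.4) in the 13 genes with a start interval and 61.2% (51.4 to 80) in the 65 without. The CpG ratio had medians of 0.81 and 0.818. A CpG-rich start was found in 11 of 13 (84.6%) and 55 of 65 (84.6%), and a divergent partner start within 1000 bp in 5 (38.5%) and 24 (36.9%). Of all 20136 protein-coding genes 2593 had such a partner. Among these 2593 genes 15.4% had a start interval, and among the members with such a partner 17.2%. The median gene length was 13324 bp with a start interval and 10986 bp without.

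**Figure D3:**
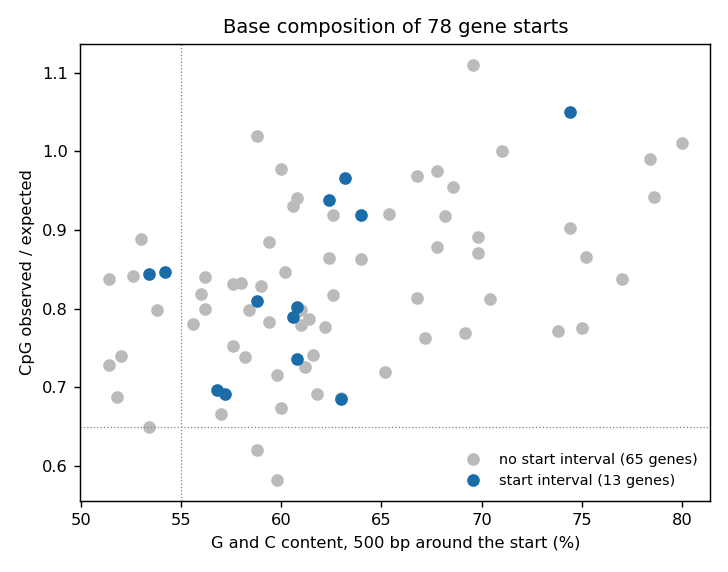
G and C content (%, horizontal) against the observed to expected CpG ratio (vertical) over 500 bp around the starts of the 78 genes. By the deposited symbol, blue points have a start interval and grey points, with MRPL58 among them, do not. Dotted lines mark 55% and 0.65. The blue points lie among the grey ones, between 53.4% and 74.4%.

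By the authors' count of islands, a CpG island overlapped all 12 start intervals and 93.3% of all start intervals. Of the 5 member intervals away from the start, 1 did, the interval at DNAJC9. Over all 17 the share was 76.5% (50.1 to 93.2), against 35.0% in the whole list. Around the 12 start summits, G and C made up a median of 58.2% of 200 bp (50.5 to 63.5), and around all start summits 63.5%. The lowest value was 44%, at MRPL46 and MRPS11, and the highest 71.5%, at MRPS34.

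A set of 11 short words was searched on both strands in the 200 bp centred on each summit. The words were chosen with earlier results of these data known. No matches of different words overlapped in the members' windows. The word CCGGAAG, the core bound by ETS factors such as GABPA, which is known for its sites in genes of mitochondrial proteins, was found in 4 of the 12 start intervals (33.3%, 9.92 to 65.1), against 10.6% of all start intervals. They were those of MRPS16, MRPS18A, MRPS31 and MRPS34, with 2 copies at MRPS34. These sites are shown because they are the letters these members have in common. Each line gives 30 bases of hg19 on the strand that reads the word, which stands in capitals.
MRPS16, chr10:75012380-75012409, plus strand: aaacctcgactCCGGAAGcggatgatccgc
MRPS18A, chr6:43655542-43655571, minus strand: gggcgctacgttCCGGAAGcggaaatggac
MRPS31, chr13:41345341-41345370, minus strand: gaaggcgccaggCCGGAAGcggaagagagg
MRPS34, chr16:1823137-1823166, plus strand: cagcggtccggCCGGAAGtcaCCGGAAGag

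None of these matches sat at the summit itself. The word's centre was 54 bp from the summit at MRPS16, 60 bp at MRPS18A, 64 bp at MRPS31 and, for the copies at MRPS34, 63 and 73 bp. In a window of 100 bp none of the 12 start intervals held the word, and 5.07% of all start intervals did, whereas in 500 bp 7 of the 12 (58.3%, 27.7 to 84.8) did, against 23.3%. At MRPS18A and MRPS31 it lay 28 and 29 bp upstream of the annotated start, on the strand of the gene.

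The word GGGCGGG, bound by SP and KLF factors, was also found in 4 of the 12 (33.3%), at MRPL15, MRPL17, MRPS18A and MRPS31, against 22.2% of all start intervals. MRPS18A and MRPS31 held both words. The 120 bases directly before their starts are shown, read on the gene's strand towards the start, with CCGGAAG and GGGCGGG or its reverse complement in capitals.
MRPS18A, chr6:43655529-43655648, minus strand: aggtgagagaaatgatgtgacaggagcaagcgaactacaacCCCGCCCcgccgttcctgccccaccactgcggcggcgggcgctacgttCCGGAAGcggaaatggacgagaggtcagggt
MRPS31, chr13:41345327-41345446, minus strand: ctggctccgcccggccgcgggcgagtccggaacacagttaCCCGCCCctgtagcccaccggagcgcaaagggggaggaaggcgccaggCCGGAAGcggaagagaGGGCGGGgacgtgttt

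The order was the same in both, with the reverse of GGGCGGG upstream and CCGGAAG nearer the start, and MRPS31 had a further GGGCGGG between the ETS word and the start. The shared promoter of MRPL46 and MRPS11 held none of the 11 words in the 200 bp centred on its summit. The 62 bases between the 2 genes lie 85 to 146 bp from that summit, mostly outside this window, and held none of the words either. They are shown because they separate a large and a small subunit gene, on the plus strand, which is that of MRPS11.
MRPL46 and MRPS11, chr15:89010622-89010683, plus strand: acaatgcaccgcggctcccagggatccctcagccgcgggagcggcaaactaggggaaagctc

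The AP-1 word TGANTCA, where N is any base, was found at the summit of 2 member intervals. At MRPS35 it was centred 1 bp from the summit, and this was the only 1 of the 12 start intervals with the word (8.33%, 0.211 to 38.5), against 36 of all 1202 start intervals and 20.2% of the whole list. In 500 bp it was in 4 of the 12 (33.3%), against 8.24% of all start intervals. At the interval beyond the end of MRPS23 it was centred 3 bp from the summit. The 120 bases around both summits are shown on the plus strand with the word in capitals.
MRPS35, chr12:27863493-27863612, plus strand: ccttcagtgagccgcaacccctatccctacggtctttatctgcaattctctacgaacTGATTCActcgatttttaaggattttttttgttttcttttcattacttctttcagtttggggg
MRPS23, chr17:55911925-55912044, plus strand: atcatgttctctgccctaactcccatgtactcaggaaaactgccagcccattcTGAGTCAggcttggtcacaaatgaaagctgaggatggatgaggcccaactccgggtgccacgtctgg

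Over 200 bp around the summit, G and C made up 47% at MRPS35 and 58% at the end of MRPS23. Other words were rare or missing in the 12 start windows. CACGTG, the E-box bound by MYC and USF, was found at MRPL15 and MRPS33 (16.7%, against 14.4% of all start intervals), and CGCGAC at MRPL15 and MRPS34 (16.7%, against 13.2%). CGTCGC was in 0 of 12, against 15.5%, and the CCAAT box in 0 of 12, against 17.9%. GCGCATGCG (NRF1), AAGATGGCG (YY1), TGACGTCA (CREB and ATF) and TCTCGCGA were in none, against 0.915%, 2.58%, 1.91% and 1.58%. In windows of 500 bp the NRF1 word was in 2 of 12 (16.7%, against 3.49%), the YY1 word in 2 of 12 (16.7%, against 5.74%) and the CCAAT box in 3 of 12 (25%, against 42.3%), while CGTCGC, the CREB and ATF word and TCTCGCGA stayed at 0. With 12 windows, a count of 0 allows a share of up to 26.5%. In 500 bp the backgrounds of CGTCGC, TGACGTCA and TCTCGCGA were 28.4%, 4.24% and 3.49%. That of CGTCGC lies above this bound, and the difference was not tested.

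The same words were counted in RefSeq promoters (GRCh38.p14; 250 bases before to 50 after the start), which held 69 of the 78 members. CCGGAAG was in 29 of 69 (42%), against 14.4% of 15318 protein-coding promoters. It was in 7 of the 11 members with a start interval and in 22 of the 58 without (63.6% and 37.9%). AAGATGGCG was in 13 of the 69 (18.8%, against 2.80%), with shares of 18.2% and 19% in members with and without a start interval. GCGCATGCG was in 2 of the 11 (18.2%) and 1 of the 58 (1.72%), against 2.74% of all promoters. CGTCGC was in 0 of the 11 and 15 of the 58 (25.9%), against 13.7% of all promoters. Both the ETS and the YY1 word were thus found in promoters with and without an interval, and these counts describe letters, not bound sites.

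Other genes of the mitochondrial expression system carried start intervals at shares of 13.3 to 42.9%. Of 7 ribosomal proteins of mitochondria with another name in the list, of which MRPL57 and MRPL58 are also members, 3 had one, namely DAP3, a small subunit protein (height 28, 154 bp upstream), PTCD3, a pentatricopeptide protein of the small subunit (27, 153 bp upstream), and ICT1. Of 26 assembly and RNA modification factors 4 had one (15.4%, 4.36 to 34.9), led by MTERF3 with 44 and RPUSD4, a pseudouridine synthase, with 41. Of 15 translation factors 2 had one (13.3%), LRPPRC, which stabilises mitochondrial messenger RNAs, with 26 and MTRFR, a release factor homologue, with 16. Of 21 tRNA charging enzymes 4 had one (19%), led by WARS2 with 23. Of 11 genes for replication and transcription of mitochondrial DNA 2 had one (18.2%), POLG, the mitochondrial DNA polymerase, with 163 and MGME1 with 15. POLG, at 310 bp upstream, was thus taller than every member.

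The respiratory chain, whose core the mitochondrial ribosome makes, had the same count of nuclear genes with a start interval, 13 of 78 (16.7%). Their 13 intervals had a median height of 21 (15 to 71), with COX4I1 at 140, NDUFS7 at 118 and CYCS at 71, against 14 (13 to 25) for the members. Of the 13, 5 reached a height of 40 and of the members' 12 none. Cytosolic ribosomal protein genes had start intervals in 23 of 79 (29.1%, 19.4 to 40.4), with a median height of 15 (12 to 17), led by RPS16 at 146. The ranges of both shares overlap that of the members, and no difference between the lists was tested.

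**Figure D4:**
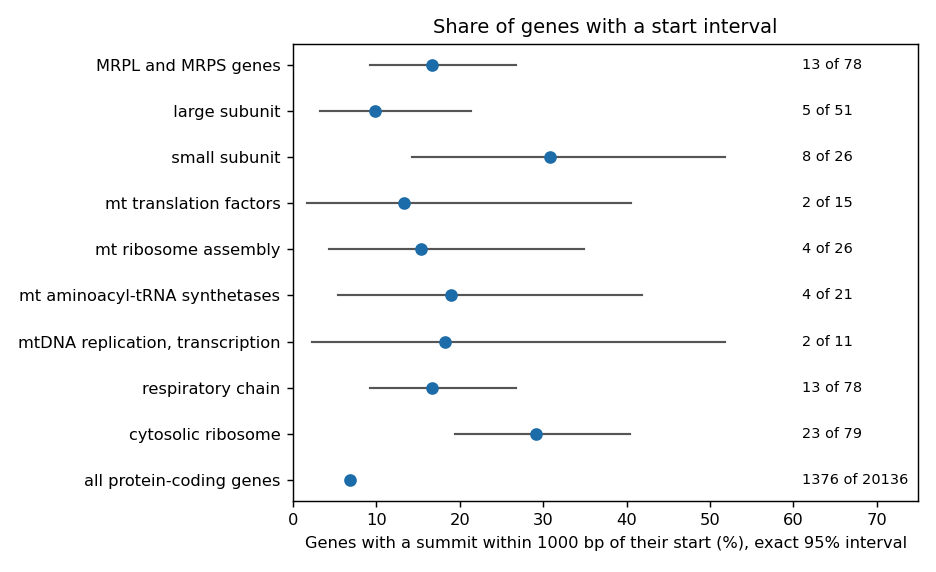
Share of genes with a summit within 1000 bp of their start (%, horizontal axis) in each list, with exact 95% intervals as lines and counts at the right; mt stands for mitochondrial. The members lie at 16.7%, with the small subunit at 30.8% and the large at 9.80%, the cytosolic ribosome at 29.1% and all protein-coding genes at 6.83%. MRPL58, whose start interval is listed under ICT1, is counted as without among the members and the large subunit.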

How the data were processed

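Intervals were called in 1 ChIP library; the list is not pooled. BWA aligned the 75 nt reads to hg19 (at most 2 mismatches, unique places) and MACS called the intervals, per the series' design text; neither versions nor any use of the input as control are stated there. Peak and mean values are the authors' density signal. The score, per the file headers, is the log10 of the MACS p-value times minus 10. Heights were used only within this list.

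Genes and distances are the authors' assignments. GENCODE version 44 on GRCh37, the same build, gave starts, exons and all 20136 protein-coding genes; of 3677 deposited symbols 3088 (84%) matched one on the same chromosome, through RefSeq synonyms where needed. For shared starts, any protein-coding transcript start was used. Python 3.11.15, pandas 2.3.3, scipy 1.17.1 and pysam 0.24.0 were used, and functions were tested on simulated data.

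Members, gene lists and words were chosen with earlier results of these data known. Every member with an interval was to be named, with the 8 tallest start intervals in full, and of other lists up to 3 genes. No p-value was computed. Read depth is unknown.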

Additional observations from a re-analysis of the deposited data

How the results depend on the processing

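Of 43 alternatives, 38 left the value inside the 95% interval of the reported one, or on the same side of all start intervals where the strength was measured in another unit. Of the 43, 22 were other window sizes for the words at the same 12 start intervals. Their 95% intervals are wide, such as 9.92 to 65.1 for the ETS word, so many values stay inside. Counted separately, 5 of the 43 put a share on the other side of its background. Matching of older symbols was chosen after seeing the data; the others were planned. Among intervals at or above the median score, 8.97% of members had an interval (background 8.73%) and 7.69% a start interval (4.02%). In the upper quartile of score both shares were 6.41% (4.78% and 2.29%). Fewer intervals enter at these limits, and whether this alone lowered the members' shares was not tested. The 95% intervals of the start shares, 2.88 to 16 and 2.11 to 14.3, then include their backgrounds. With 100 bp around the summit, the ETS word fell to 0% of start intervals, since all 5 copies lie 54 to 73 bp from a summit. The sides turned for the ETS word in 100 bp (background 5.07%), for the NRF1 and YY1 words in 500 bp (both 16.7%, against 3.49% and 5.74%), for CGCGAC in 500 bp (25%, against 26.1%) and for shared starts with all annotated genes (50%, against 52.2%); the cause was not tested. Assignment by the annotation (summit inside a gene or within 10000 bp) gave 23.1%, adding MRPL33, MRPS22 and MRPL58. No paired analysis was possible because there is 1 ChIP library. The read depth is not known, and this limits any statement on genes without an interval.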
